A study of Mus musculus with 18 samples.

Results

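Collagen genes were read from hindlimb muscle RNA-seq as every gene whose symbol is Col, a type number, the letter a and a chain number (Col1a1, Col4a2 and so on), which gave 44 of the 23420 genes in the table. They were grouped by the structure their protein joins, with 8 fibrillar, 8 basement membrane, 7 cartilage and 21 other collagens. The muscle came from female C57BL/6J mice of 2 months (2-m, young), 20 months (20-m, aged) and 28 months (28-m, superaged), with 3 mice and so 3 libraries at each age and no treatment or genotype besides age. The DNA of the same mice, combined into 1 pool per age, was used for MBD-seq, in which fragments with methylated CpGs are captured and sequenced, and splenic T cells were captured in the same way.

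Collagens are secreted triple helices built from 3 chains each. Types I, III and V form the banded fibrils that carry tension in tendon and in the sheaths around muscle fibres, type IV forms the sheet-like network of the basement membrane that wraps each fibre, and type VI forms beaded filaments that link that sheet to the fibrils. Types II, IX, X and XI are best known from cartilage. In muscle most of this matrix is made by fibroblasts, by tendon cells and by vessel and nerve sheaths rather than by the fibres. In bulk tissue, fewer cells of a type and less RNA per cell cannot be told apart.

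The RNA libraries held 20203833 to 71115244 reads on genes. All 7 muscle fibre markers were found in every library. The 3 libraries numbered 3 stood apart from the others, with 2.36% to 2.5% of reads not aligned against 4.39% to 5.39%, and each age had 1 of them. 2-m replicate 1 was highest of the 9 libraries in 8 of 8 marrow markers, 7 of 8 bone markers and, among the 8 cartilage markers, Acan, Cnmd, Snorc and Hapln1. 28-m replicate 2 was highest in 7 of 8 epidermis markers, a list added after its values were seen. The collagen share and the counts of calls are therefore also given without them.

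Reads on collagen genes made up a smaller share of the library in aged muscle. They were 0.243%, 0.145% and 0.328% of the reads on genes in the 2-m libraries, 0.0548%, 0.0476% and 0.0746% in the 20-m libraries, and 0.0492%, 0.0648% and 0.0914% in the 28-m libraries. Every 2-m library was thus above every older one, with 2-m replicate 2 the lowest of the young, while the 20-m and 28-m values overlapped. The mean was 0.239% ± 0.0916 (SD, n = 3) at 2 months, 0.059% ± 0.014 at 20 months and 0.0685% ± 0.0214 at 28 months. On the log2 scale the difference of 20-m from 2-m was -1.97 and that of 28-m from 2-m -1.77, each with p = 0.1 in a two-sided exact permutation test, the smallest p that 3 against 3 libraries allow. The difference of 28-m from 20-m was 0.19 (exact p = 0.6). Without the libraries numbered 3 the 3 differences were -1.88, -1.73 and 0.14, where 2 against 2 libraries allow no exact permutation p below 0.333. Without 2-m replicate 1 and 28-m replicate 2 they were -1.91, -1.70 and 0.21.

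The make-up of these reads differed between young and older muscle as well. Fibrillar collagens took 71.3%, 58.2% and 69.0% of the collagen reads in the 2-m libraries, against 32.8% to 34.3% at 20 months and 34.0% to 35.9% at 28 months. Type I alone, the main fibril of tendon and fascia, took 36.7% to 58.4% in young muscle, 19.0% to 20.0% at 20 months and 17.7% to 19.6% at 28 months. Basement membrane collagens took 12.7% to 22.6% in young muscle, 35.6% to 36.6% at 20 months and 34.3% to 35.7% at 28 months. As shares of one total these values are tied to each other, and a larger share of basement membrane collagen is not a higher level. The 6 older libraries lay within a few percentage points of each other in every class. The 3 young ones were spread more widely for fibrillar and basement membrane collagens. They ranged from 0.795% to 2.31% for cartilage and from 13.7% to 18.4% for the other collagens.

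**Figure D1:**
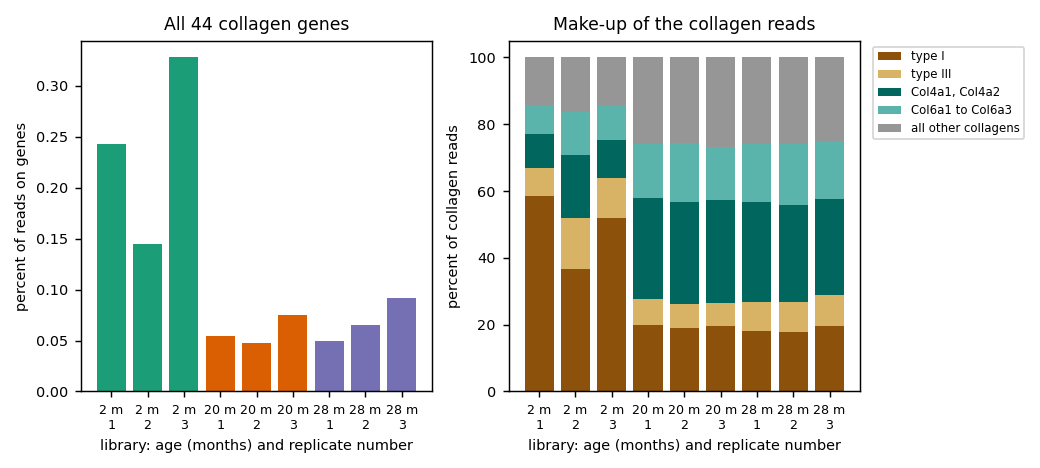
Left, reads on the 44 collagen genes as a percent of the reads on genes, 1 bar per library. Right, the collagen reads of each library divided among type I (Col1a1 and Col1a2), type III (Col3a1), the common type IV chains, the common type VI chains and all other collagens, in percent. The 2-m bars reach 0.145% to 0.328% and the older ones 0.0476% to 0.0914%, and type I fills 36.7% to 58.4% of the 2-m bars and 17.7% to 20.0% of the others.

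Of the 44 genes, 41 had a mean of at least 10 normalized counts over the 9 libraries and were tested. Col25a1, Col6a4 and Col9a3 were below this level, with means of 6.24, 4.65 and 3.71. A normalized count is the reads on a gene divided by the size factor of its library. In the fit over all genes (limma, log2 of the normalized count plus 1, adjusted p under 0.05), 23 of the 41 were lower in 20-m than in 2-m muscle and 0 were higher, where 7.13% of all 13178 genes tested were lower and 9.42% higher. In 28-m against 2-m muscle 21 were lower and 0 higher, where 6.24% of all genes were lower and 7.53% higher. Both comparisons use the same 3 young libraries. Their median log2 change was -1.16 at 20 months and -1.03 at 28 months, beside medians over all genes of -0.02 and -0.01. In 20-m against 2-m muscle 25 of the 41 had every older library below every young one, against 17.6% of all genes, and 0 had every one above, against 18.4%. Without 2-m replicate 1 and 28-m replicate 2, 19 and 15 of 38 tested were lower and 0 higher. The calls lost were those of Col11a2, Col14a1, Col28a1 and Col6a6 at 20 months (adjusted p = 0.068 to 0.19) and of Col2a1, Col4a4, Col12a1, Col18a1, Col22a1 and Col26a1 at 28 months (0.066 to 0.17). With only the libraries numbered 1 and 2, 20 were lower at 20 months, and at 28 months 14 were lower and 1, Col6a5, was higher.

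In 28-m against 20-m muscle 0 of the 41 were called in either direction, where 0.167% of all genes were lower and 0.212% higher. At an unadjusted p under 0.05, 7 were higher and 2 lower, where 5.15% of all genes were higher and 5.44% lower. edgeR called 0. DESeq2 called 1, Col28a1, as higher, where it called 0.933% of all genes higher and 0.797% lower. The median log2 change was 0.22, beside 0.00 over all genes, and 9 of the 41 had every 28-m library above every 20-m library, against 8.63% of all genes. Another 2 had every 28-m library below, against 8.84% of all genes.

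**Figure D2:**
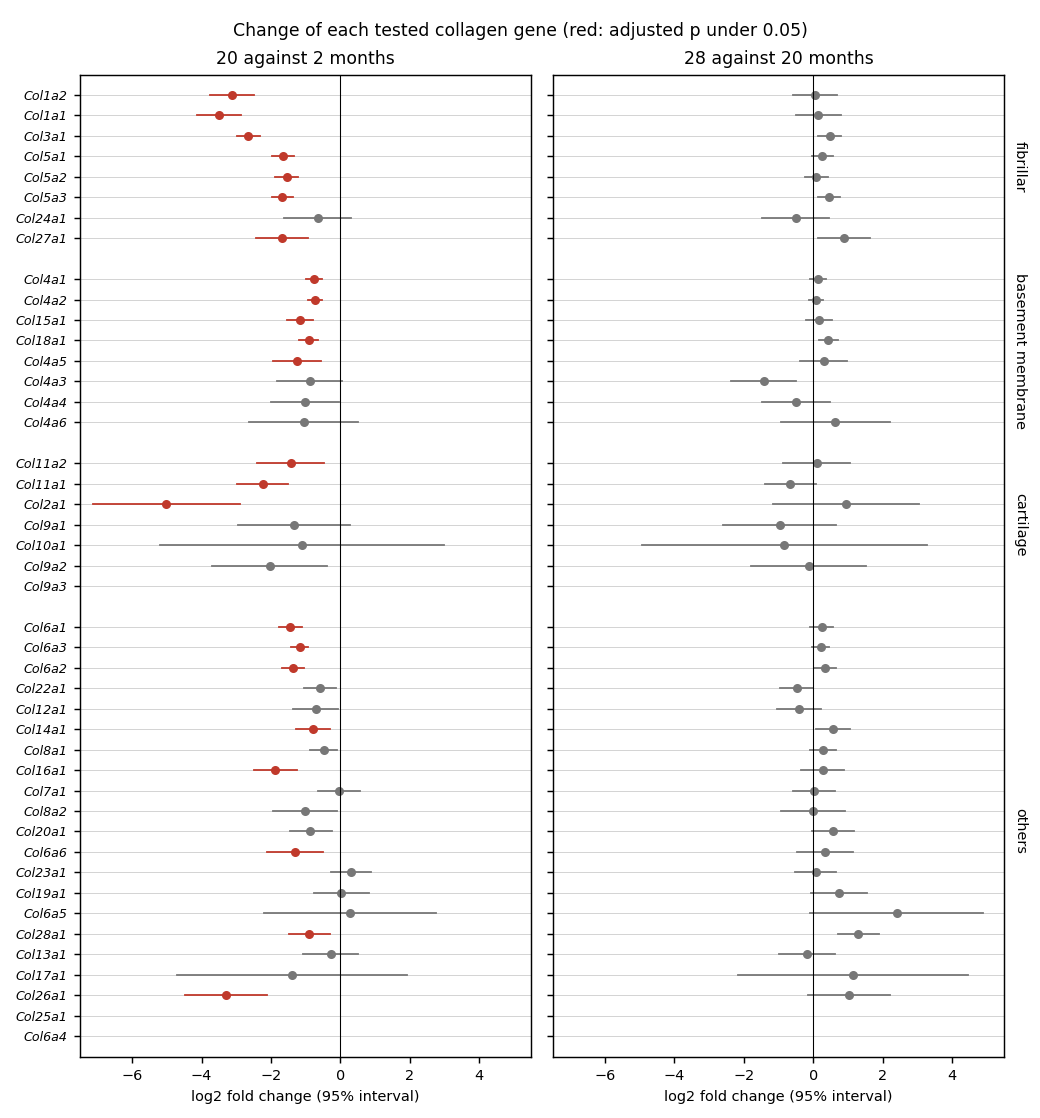
Log2 fold change of each tested collagen gene with its 95% interval from the limma fit, by class, for 20 against 2 months on the left and 28 against 20 months on the right. Genes without a point were below the level needed for a test. Red points, called at an adjusted p under 0.05, are all left of 0 on the left side, from -5.01 to -0.72, and the right side has none.

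The fibrillar class held the highest levels in young muscle, and 7 of its 8 genes fell at 20 months. Of the tested genes of the other classes, 5 of 8 basement membrane, 3 of 6 cartilage and 8 of 19 other collagens fell then. At 28 months 6 of 8 fibrillar, 6 of 8 basement membrane, 2 of 6 cartilage and 7 of 19 other collagens were lower than at 2 months. Over all genes 7.13% were lower at 20 months and 6.24% at 28 months. Per kb of transcript, Col1a2 stood first of the 44 collagens in young muscle with 5950 normalized counts per kb, followed by Col1a1 with 4269 and Col3a1 with 2243. At 20 months Col4a1 stood first with 691 per kb and Col1a2 second with 621, and at 28 months the order was the same with 757 and 652.

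Col1a1, on chromosome 11 at 94936224-94953042 of GRCm38 on the plus strand, encodes the chain that occurs in 2 copies in type I collagen. Its normalized counts were 34207, 11798 and 29946 in the 2-m libraries, 2259, 1711 and 2170.0 in the 20-m libraries and 1979, 2190.4 and 2657 in the 28-m libraries. The young libraries did not overlap the older ones, although 2-m replicate 2 was well below the other young ones. The mean was 12.4-fold lower at 20 than at 2 months and the log2 change was -3.50 ± 0.30 (SE), with an adjusted p of 2.2e-05. At 28 months the log2 change from 2 months was -3.34 ± 0.30 (adjusted p = 2.2e-05), and that from 20 months 0.15 with an interval of -0.49 to 0.79.

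Col1a2, on chromosome 6, encodes the other chain of type I collagen and went the same way. It had 40816, 14853 and 37550 normalized counts at 2 months, 3335, 2921 and 3472 at 20 months and 2763, 3287 and 4165 at 28 months, a log2 change of -3.13 ± 0.29 at 20 months and of -3.08 ± 0.29 at 28 months from the young level (adjusted p = 3.8e-05 and 3.9e-05). 2-m replicate 2 was again the lowest of the young, and it was also the lowest of the young in the summed level of 7 tendon markers, with 13392 against 34526 and 35293. Most of that sum was Fmod and Thbs4, whereas the tendon transcription factor Scx was highest of the 9 libraries in 2-m replicate 2, at 431.7 against 271.9 and 248.3 in the other young ones. At 20 months that sum was 14873 to 18244 and at 28 months 10490.0 to 14021, with every tendon marker above 0 in all 9 libraries. Among them, Tnmd and Kera were lower at 20 months and Tnmd, Kera and Thbs4 at 28 months. Their part in the fall of type I collagen was not tested.

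Col3a1, on chromosome 1, encodes type III collagen, which shares fibrils with type I in fascia and vessel walls. Its values were 10899, 10941 and 15596 at 2 months, 2117, 1728 and 2046 at 20 months, and 2209, 2830 and 3237 at 28 months. Here 2-m replicate 2 was level with replicate 1, unlike for type I. Col3a1 fell by 2.65 ± 0.16 on the log2 scale at 20 months (adjusted p = 2.7e-06). All 28-m libraries lay above all 20-m libraries, by 0.48 on the log2 scale with an interval of 0.14 to 0.81, which did not pass the adjustment (adjusted p = 0.28).

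Type V collagen starts fibrils and sets their width, and its 3 chains fell together at 20 months. Col5a1 had 2031, 1764 and 2505 normalized counts at 2 months and 691, 574 and 735 at 20 months, a log2 change of -1.65 ± 0.14 (adjusted p = 2.7e-05). Col5a2 changed by -1.54 ± 0.15 and Col5a3 by -1.67 ± 0.14 (adjusted p = 5.2e-05 and 2.2e-05), and all 3 were also lower at 28 than at 2 months, by -1.38, -1.46 and -1.21. Of the sparse fibrillar collagens, Col27a1 fell from 91.7 ± 27.2 to 28.4 ± 11.5 at 20 months (adjusted p = 0.0062), stood at 51.2 ± 8.38 at 28 months and was not called against 2 months there (adjusted p = 0.15). Col24a1 was called at neither age, with 86.1 ± 15.4, 59 ± 31.8 and 41.9 ± 22 at the 3 ages.

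Because ratios of 2 genes within a library do not depend on its scaling, the chains were also set against each other. The ratio of Col3a1 to Col1a1 reads was 0.319, 0.927 and 0.521 in young muscle, 0.937, 1.01 and 0.943 at 20 months and 1.12, 1.29 and 1.22 at 28 months, so that no age overlapped another. Each of the 3 differences, 0.85, 0.33 and 1.17 on the log2 scale for 20-m against 2-m, 28-m against 20-m and 28-m against 2-m, had an exact permutation p of 0.1, the smallest possible. The first of them ranged from 0.47 without 2-m replicate 1 to 1.24 without 2-m replicate 2. Without the libraries numbered 3 they were 0.84, 0.30 and 1.14. The ratio of Col1a1 to Col1a2 was 0.838, 0.794 and 0.798 in young muscle, 0.677, 0.586 and 0.625 at 20 months and 0.716, 0.666 and 0.638 at 28 months. It was lower in all older libraries, with a log2 difference of -0.37 at 20 months (exact p = 0.1), and of -0.37 also without the libraries numbered 3. In contrast, the ratio of Col4a1 to Col4a2, the chains of the common type IV network, was 1.28, 1.21 and 1.37 in young muscle, 1.17 to 1.3 at 20 months and 1.26 to 1.29 at 28 months, with exact p values of 0.5 for the 20-m and 1.0 for the 28-m against the 2-m libraries.

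**Figure D3:**
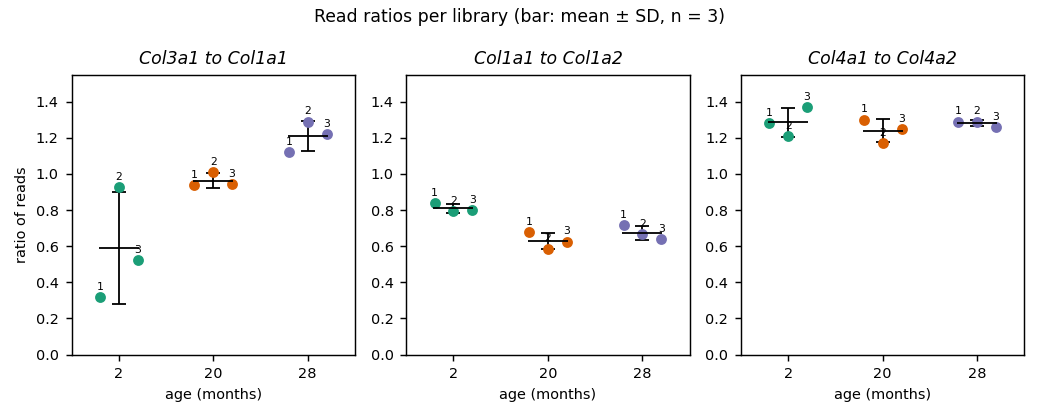
Ratio of reads on 2 collagen genes in each library (points, with the replicate number above), by age in months, with the mean and SD (n = 3) as bars. The ratio of Col3a1 to Col1a1 lies at 0.319 to 0.927, 0.937 to 1.01 and 1.12 to 1.29 at 2, 20 and 28 months, and that of Col4a1 to Col4a2 stays between 1.17 and 1.37.

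Basement membrane collagens fell by less than the fibrillar ones in the fit, with a class median of -0.96 at 20 months beside -1.68, though the difference between classes was not tested. Col4a1 had 7413, 7540.2 and 8469 normalized counts at 2 months, 4829, 4007 and 4909 at 20 months and 4403, 5048 and 5602 at 28 months. The young libraries were close to each other and above all older ones, so that the smaller change was clear of the spread (log2 -0.77 ± 0.11, adjusted p = 0.00047 at 20 months, and -0.64 ± 0.11, adjusted p = 0.0017 at 28 months). Col4a2 changed by -0.72 ± 0.10 and -0.64 ± 0.10 (adjusted p = 0.00037 and 0.00088). With the libraries rescaled to the same sum neither was called at 28 months (adjusted p = 0.13 for Col4a1 and 0.12 for Col4a2). These genes lie head to head on chromosome 8, and their annotated starts overlap by 22 bases on opposite strands. The counting setting for strand was not given in the sources used here, so reads within those 22 bases may have been left out or assigned to either.

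The other type IV genes are likewise arranged in head-to-head pairs, with 71 bases between the starts of Col4a3 and Col4a4 on chromosome 1 and 1342 bases between those of Col4a5 and Col4a6 on chromosome X. Their chains form the specialised networks known from kidney and smooth muscle, and their levels here were low. Col4a3 was at 107, 82.8 and 88.8 normalized counts at 2 months, 41.1, 55.7 and 53.4 at 20 months and 7.59, 27.6 and 26.4 at 28 months, so that each age lay wholly below the one before. It was called only for 28-m against 2-m muscle in the limma fit of all 9 libraries (log2 -2.30 ± 0.43, adjusted p = 0.0041). It was called lower at 20 months too with only the libraries of the ages compared (log2 -0.88, adjusted p = 0.042) and without 28-m replicate 1 (0.048). Its partner Col4a4 was at 65.5 ± 27, 31.3 ± 12.7 and 21.9 ± 8.71 and was likewise called only against 2 months (log2 -1.50, adjusted p = 0.044), a call that was lost without 2-m replicate 1 or 3, 20-m replicate 1 or 2 or 28-m replicate 1 or 3 (adjusted p = 0.051 to 0.16). Col4a5 fell at 20 months (log2 -1.25 ± 0.32, adjusted p = 0.018, but 0.053 to 0.076 without 2-m replicate 3 or 20-m replicate 1 or 2, and 0.059 with the libraries rescaled to the same sum). At 28 months Col4a5 was not called (0.066), but was with the replicate number as a block (0.016), with only the libraries of the ages compared (0.049) and in DESeq2 (0.019). Col4a6, at 21.4 ± 6.44, 13.5 ± 10.4 and 15.5 ± 2.66, was called at neither age.

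The multiplexins Col15a1 and Col18a1, which sit between basement membranes and fibrils and whose C-terminal pieces are released as endostatins, both fell. Col15a1 had 2028, 1681 and 2637 normalized counts in young muscle, 909.7, 827 and 1067 at 20 months and 877, 1003 and 1287 at 28 months (log2 -1.16 ± 0.17 and -1.0 ± 0.17, adjusted p = 0.00075 and 0.0022). Col18a1 was at 705 ± 29.1, 377 ± 58.3 and 507 ± 39.4, with the 28-m libraries between the others and overlapping neither. Its change from 2 months was -0.91 ± 0.13 at 20 months and -0.48 ± 0.13 at 28 months (adjusted p = 0.00053 and 0.025), and the call at 28 months was lost without 2-m replicate 1 or 3 or 28-m replicate 1 (adjusted p = 0.066 to 0.099) and with the libraries rescaled to the same sum (0.51).

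**Figure D4:**
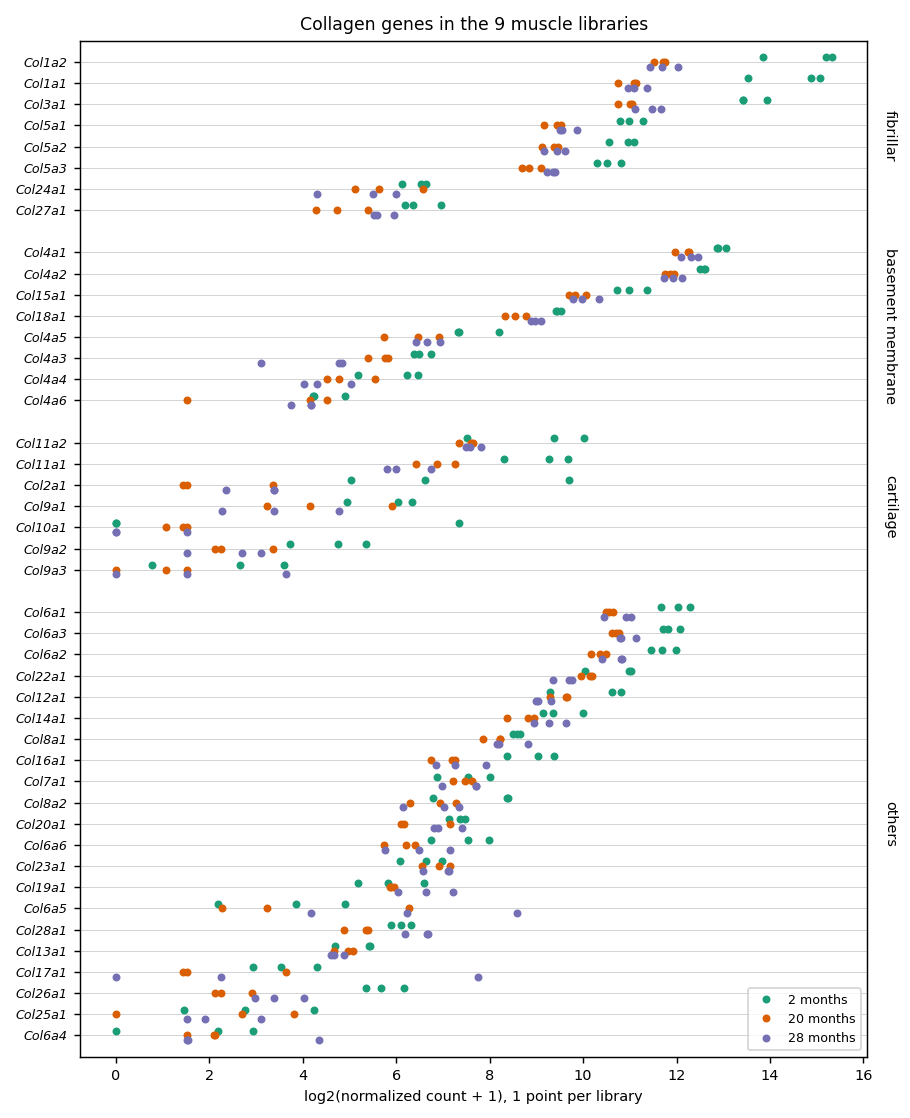
Normalized counts of the 44 collagen genes on a log2 scale (value plus 1), 1 point per library, coloured by age and ordered by mean level within each class. For Col1a1, Col1a2 and Col3a1 the 2-m points lie wholly to the right of the others, and Col10a1 and Col17a1 each have 1 point far from the rest.

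Among the cartilage collagens, part of the young signal came with 1 library. Col2a1, the main fibril of cartilage, was at 825, 31.7 and 97.5 normalized counts in the 2-m libraries, at 1.87, 1.69 and 9.26 at 20 months and at 9.49, 4.14 and 9.44 at 28 months, where 1.87 and 1.69 stand for 1 read each. Its log2 change at 20 months was -5.01 ± 0.98 (adjusted p = 0.0047). Without 2-m replicate 1 and 28-m replicate 2 the change at 20 months was -3.72 (adjusted p = 0.02) and at 28 months -2.44 (adjusted p = 0.12, from -4.07 and 0.016 with them). Col10a1, a collagen of hypertrophic cartilage, was at 160.5 in 2-m replicate 1, 0 in both other young libraries and at most 1.89 in any older one, and was not called (adjusted p = 0.73). In the same library the bone and marrow genes Ibsp and Ngp stood at 758 and 1204, against at most 37 and 20.2 elsewhere, and the cartilage gene Acan at 75.8 against at most 7.05. The summed level of the 8 cartilage markers was 139 to 334 at 2 months, 189 to 321 at 20 months and 193 to 304 at 28 months, where Sox9, higher at both older ages, made up most of it outside 2-m replicate 1 and Matn1 was at 0 in all 9 libraries. The sum of the 8 bone markers was 512 to 1801 at 2 months and 416 to 657 at the older ages, and that of the 8 marrow markers 131 to 3589 and 207 to 381, with 0, 3 and 2 of the bone markers at 0 in the 3 young libraries. The part of these tissues in the levels of Col2a1 and Col10a1 was not tested.

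The type XI chains also occur outside cartilage, in tendon. Col11a1 was at 814, 317 and 621 normalized counts at 2 months, 151, 84.4 and 116 at 20 months and 62.6, 55.2 and 106 at 28 months, with no overlap between young and older. It fell at both ages, with log2 changes of -2.24 ± 0.34 and -2.91 ± 0.34 from 2 months (adjusted p = 0.001 and 0.00018), and the call stood without 2-m replicate 1 and 28-m replicate 2, at -1.95 and -2.43 (adjusted p = 0.0079 and 0.005). Col11a2 was at 1041, 182 and 660 at 2 months and 185 ± 20.1 and 198 ± 24 later, so that 2-m replicate 2 lay within the range of the older libraries. It was called at 20 months (adjusted p = 0.045) but not at 28 months (0.065) in limma, and the call at 20 months was lost with any library but 2-m replicate 2 left out (0.057 to 0.16). At 28 months it was called with the replicate number as a block (0.026), after rescaling to the same sum (0.036), in edgeR (0.024) and in DESeq2 (0.025). Of type IX, which decorates cartilage fibrils, Col9a1 and Col9a2 were not called by limma at either age, with 58.1 ± 25.7, 28.2 ± 27.3 and 13.2 ± 11.7 for Col9a1 and 26.1 ± 13.9, 5.46 ± 3.3 and 5 ± 2.89 for Col9a2. At 28 months DESeq2 called both lower (adjusted p = 0.03 and 0.035), edgeR called Col9a2 (0.045, and 0.048 at 20 months), and the limma fit with the replicate number as a block called Col9a1 (0.049). Col9a3 shares 237 bases of exon with the gene Tcfl5, so its few reads are uncertain.

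Type VI collagen was the most abundant of the other class. Its chains Col6a1, Col6a2 and Col6a3, whose loss weakens muscle in inherited disease, fell in step. Col6a1 had 4179, 3262 and 4994 normalized counts at 2 months, 1493, 1438 and 1600 at 20 months and 1404, 2070.2 and 1944 at 28 months. The log2 changes of the 3 chains were -1.44 ± 0.16, -1.37 ± 0.15 and -1.17 ± 0.11 at 20 months (adjusted p = 0.0001, 9.1e-05 and 4.2e-05), and -1.20, -1.03 and -0.96 at 28 months. The alternative chain Col6a6 fell at 20 months, with 181 ± 72.8, 69.7 ± 16 and 94.7 ± 44.9 at the 3 ages (adjusted p = 0.032, but 0.081 to 0.12 without replicate 1 or 3 of 2-m or replicate 1 or 2 of 20-m, and 0.062 rescaled to the same sum). At 28 months it was called without 2-m replicate 2 (0.034) or 28-m replicate 2 (0.042). Col6a4 was below the level for testing, with 0 to 6.69 normalized counts in every library but 28-m replicate 2, at 19.3.

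A pair of genes had their highest value in that same library. Col6a5 was at 383 and Col17a1, the transmembrane collagen of epidermal hemidesmosomes, at 214 in 28-m replicate 2, against at most 76.6 and 18.8 in the other libraries. The summed level of the 8 epidermis genes was 5589 there and 325 to 977 elsewhere. Of these genes, Krt14, Krt1 and Krt15 were at 0 in all other libraries, and Trp63, which made up most of the sum in the other libraries, was the only one of the 8 highest in another library. Neither collagen was called in the limma fit of all 9 libraries, while with only the libraries numbered 1 and 2 Col6a5 was called higher at 28 months (log2 4.39, adjusted p = 0.042). The part of skin in their values was not tested. Col7a1, the anchoring fibril of skin, showed no such peak, with 125, 207 and 208 at 28 months and 116 to 256 at 2 months. Its change from 2 months was -0.03 (interval -0.63 to 0.58) at 20 months and -0.01 (interval -0.61 to 0.60) at 28 months. Of its exons 36 bases overlap the microRNA gene Mir711.

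Among the collagens known to attach to fibrils or to sit at tissue junctions, Col16a1 fell from 506 ± 166 to 134 ± 24.3 at 20 months and 168 ± 65 at 28 months (adjusted p = 0.0011 and 0.0033). Col14a1 fell at 20 months, from 744 ± 241 to 424.5 ± 82.3 (adjusted p = 0.033, but 0.057 to 0.13 without replicate 1 or 3 of 2-m or replicate 1 or 2 of 20-m, and 0.16 rescaled to the same sum), and stood at 632 ± 150 at 28 months, overlapping the young level. Col12a1, a collagen of tendon and fascia, and Col22a1, found at the junction of muscle and tendon, were called only at 28 months in the limma fit of all 9 libraries. Col22a1 had 2086, 1047 and 2017 normalized counts at 2 months, 1160.1, 1132 and 986 at 20 months and 829, 659 and 864 at 28 months, a log2 change of -1.07 ± 0.21 from 2 to 28 months (adjusted p = 0.0058). Col12a1 had 1792, 626 and 1575 at 2 months, 807, 623 and 795 at 20 months and 522, 508 and 634 at 28 months (-1.13 ± 0.29, adjusted p = 0.024), where 2-m replicate 2 overlapped the older libraries. Without 2-m replicate 1 and 28-m replicate 2 the adjusted p was 0.07 for Col22a1 and 0.17 for Col12a1. The call of Col12a1 was also lost without 2-m replicate 1 or 3 or 28-m replicate 1 or 2 alone (0.064 to 0.097). With the replicate number as a block both were called at 20 months too (adjusted p = 0.026 for Col22a1 and 0.031 for Col12a1), as they were without 2-m replicate 2 (0.00042 and 0.00014). Col22a1 was also called lower at 20 months by edgeR (log2 -0.66, adjusted p = 0.048) and DESeq2 (log2 -0.65, adjusted p = 0.012).

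Col19a1, a sparse collagen found at nerve-muscle contacts and in differentiating muscle cells, was not called, with 55.7, 35.2 and 96 normalized counts at 2 months, 57.9, 60.7 and 57.2 at 20 months and 98.7, 64.9 and 147 at 28 months. Its log2 difference of 28-m from 20-m was 0.73 with an interval of -0.07 to 1.54. Col20a1, at 160 ± 18.9, 92.9 ± 41.3 and 132.5 ± 30.9, was not called either (adjusted p = 0.054 at 20 months), but was with the replicate number as a block (0.033) or a batch term for the libraries numbered 3 (0.03).

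Col28a1, a collagen of the sheaths around Schwann cells, had a low point at 20 months. Its values were 58, 79.3 and 67.9 at 2 months, 41.1, 28.7 and 39.8 at 20 months and 72.1, 101 and 102 at 28 months, so that the 20-m libraries lay below all others. The fall at 20 months passed the test (log2 -0.89 ± 0.27, adjusted p = 0.043), but it did not with any library other than 28-m replicate 1 left out (adjusted p = 0.053 to 0.14). The difference of 28-m from 20-m was 1.3 ± 0.27, with an adjusted p of 0.073 in limma and 0.0057 in DESeq2.

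Col26a1, at 40.1, 70.5 and 49.8 normalized counts in young muscle and 3.74, 3.37 and 6.54 at 20 months, fell by 3.30 ± 0.55 on the log2 scale (adjusted p = 0.0018). It stood at 15.2, 6.91 and 9.44 at 28 months, above every 20-m library and below every young one (log2 -2.27 ± 0.55 from 2 months, adjusted p = 0.017, but 0.05 to 0.077 without 2-m replicate 2 or 3 or 28-m replicate 3). At 20 months these values rest on 2, 2 and 12 reads. Of the short-chain collagens, Col8a1 was at 383 ± 21.3, 276 ± 38.6 and 342 ± 93.3 and Col8a2 at 259.5 ± 130, 118 ± 38.2 and 120 ± 45.7, and neither was called by limma at either age. DESeq2 called Col8a2 lower at both (log2 -1.13 and -1.12, adjusted p = 0.023 and 0.031), as did limma without 2-m replicate 2 (0.008 and 0.0086), and a fit of only the libraries of the ages compared called Col8a1 lower at 20 months (log2 -0.48, adjusted p = 0.046). The transmembrane collagens Col13a1 and Col23a1 were not called, with log2 changes at 20 months of -0.28 (interval -1.08 to 0.52) and 0.31 (interval -0.28 to 0.89). Col25a1, another of them, was at 0 to 17.8 normalized counts.

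Collagen chains are modified, folded, trimmed and cross-linked by dedicated proteins, and 42 such genes and collagen receptors were read beside them, of which 39 were tested. At 20 months 15 were lower and 2 higher, and at 28 months 14 were lower and 1 higher than in young muscle, with median log2 changes of -0.42 and -0.36, where 7.13% and 6.24% of all genes were lower, 9.42% and 7.53% higher, and the medians over all genes were -0.02 and -0.01. By list, at 20 months 4 of 13 tested hydroxylases and glycosyltransferases were lower and 1 higher, 3 of 6 chaperone and export genes lower and 1 higher, 3 of 7 propeptide genes, 2 of 5 cross-linking genes and 3 of 8 receptors and uptake genes lower. At 28 months the counts were 4 lower and 1 higher, then 3, 4, 2 and 1 lower in the same order. In 28-m against 20-m muscle 0 were called by limma, edgeR or DESeq2. Without 2-m replicate 1 and 28-m replicate 2, 8 were lower and 1 higher at 28 months. With the libraries rescaled to the same sum, 7 were lower and 1 higher at each age. Leaving out 2-m replicate 3 alone gave 9 lower at 20 months and 6 at 28 months, leaving out 20-m replicate 2 gave 9 lower at 20 months, and leaving out 28-m replicate 1 gave 8 lower at 28 months.

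The genes that fell included the collagen chaperone, enzymes that trim propeptides and 2 cross-linking enzymes. Serpinh1, the collagen chaperone HSP47, had 3780.2, 3130 and 3984 normalized counts in young muscle, 1778, 1412 and 1502 at 20 months and 1854, 1978 and 1948 at 28 months (log2 -1.21 ± 0.11 at 20 months, adjusted p = 2.8e-05). Creb3l1, a transcription factor for collagen genes grouped here with the export genes, fell by 1.23 ± 0.30 (adjusted p = 0.015). Of the 7 tested genes of propeptide processing, Adamts2, Bmp1 and Pcolce fell at 20 months, by 1.45, 0.92 and 1.09 on the log2 scale, and Adamts3 joined them at 28 months. Among the lysyl oxidases, which cross-link fibrils, Loxl2 had 740, 714 and 1009 normalized counts at 2 months and 355, 265 and 311 at 20 months (log2 -1.39 ± 0.17, adjusted p = 0.00023). Loxl1 was lower at 20 months as well (log2 -0.49, adjusted p = 0.0059), whereas Lox was not called (adjusted p = 0.29).

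The subunits of prolyl 4-hydroxylase that were tested were not called. P4hb, which also serves as a disulfide isomerase, was at 7925 to 8236 normalized counts at 2 months and 8112 to 8704 later, and the log2 difference at 20 months was -0.16 for P4ha1 and 0.10 for P4ha2. The prolyl 3-hydroxylase P3h2, listed under the older symbol Leprel1 and known for acting on type IV collagen, went the other way. It had 116, 86.3 and 137 normalized counts in young muscle, 407, 272 and 374 at 20 months and 359, 262 and 459 at 28 months, and so rose without overlap (log2 1.63 ± 0.23 and 1.65 ± 0.23, adjusted p = 0.00068 and 0.00063). P3h3, listed as Leprel2, fell by 1.19 ± 0.25 at 20 months (adjusted p = 0.0072). Plod1, Plod3 and Colgalt2 of the same list were lower too, at log2 -0.48, -0.35 and -0.84 (adjusted p = 0.0071, 0.03 and 0.029). P3h3, Plod1, Plod3 and Colgalt2 were also called lower at 28 months (adjusted p = 0.017 to 0.045). Mia3, which helps load large cargo such as procollagen at the exit sites of the endoplasmic reticulum, was higher at 20 months (log2 0.39, adjusted p = 0.007). Of the 8 receptors and uptake genes, Ddr1, Ddr2 and Mrc2 were lower at 20 months, and the collagen-binding integrin subunit Itga10 was the only one called at 28 months, where it was lower (log2 -1.23, adjusted p = 0.035).

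Markers of fibroblasts moved in part with the collagens. The summed level of the 7 markers was 46614 to 70117 at 2 months, 40680.2 to 46055 at 20 months and 42135 to 54216 at 28 months, and none was at 0 in any library. At 20 months 4 of the 7 were lower, namely Dpt, Clec3b, Pi16 and Gsn, and at 28 months 2 of them, Dpt and Clec3b. Over all genes 7.13% were lower at 20 months and 6.24% at 28 months. Pdgfra, which marks the fibroblast-like progenitors of muscle, was at 1672, 1306 and 1632 normalized counts at 2 months, 1397, 1352 and 1278 at 20 months and 1474, 1330.0 and 1429 at 28 months and was not called (log2 -0.19, adjusted p = 0.23 at 20 months). Dcn, a proteoglycan of fibril surfaces, was not called either (adjusted p = 0.59). Nor was Pdgfrl, with log2 changes of -0.96 at 20 months (adjusted p = 0.054) and -0.94 at 28 months (adjusted p = 0.065). Of 5 adipocyte markers, whose sum was 631 to 1685, 284 to 511 and 285 to 927 at the 3 ages, 4 were lower at 20 months and 1, Cidec, at 28 months (log2 -1.63, adjusted p = 0.011), and none was at 0 in any library. Of 5 markers each of endothelium, mural cells and macrophages, Pdgfrb and C1qa were lower at 20 months and no other was called at either age. Of the 7 muscle fibre markers, Pvalb was lower at 20 and 28 months (log2 -0.85 and -1.03, adjusted p = 0.002 and 0.00056). Myh2 was higher (0.80 and 0.70, adjusted p = 0.019 and 0.039), and the other fibre markers were not called. The part of these cell types in the fall of the collagens was not tested.

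Methylated DNA was read at the start site of each collagen gene as the mean normalized count of the 5 bins of 500 bp around it. The question was whether these sites changed in captured DNA with age. The 6 pools held 135254786 to 200456498 reads on bins. No test was possible with 1 pool per age, and the muscle columns name no capture round. Because capture needs CpGs, the stretches before the starts of 3 fibrillar collagens are shown, with each CG in capitals, taken from the RefSeq promoter table of GRCm38.p6 and limited to bases that no annotated exon covers. All are on the plus strand.
Col1a2, chr6:4505370-4505492: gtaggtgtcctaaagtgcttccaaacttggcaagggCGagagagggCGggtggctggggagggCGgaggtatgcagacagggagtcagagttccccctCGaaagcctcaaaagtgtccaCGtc
Col3a1, chr1:45311288-45311537: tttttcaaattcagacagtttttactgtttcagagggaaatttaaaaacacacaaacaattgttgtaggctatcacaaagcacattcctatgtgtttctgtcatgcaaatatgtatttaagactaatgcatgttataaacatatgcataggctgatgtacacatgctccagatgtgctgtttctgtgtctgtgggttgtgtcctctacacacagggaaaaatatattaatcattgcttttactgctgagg
Col5a1, chr2:27886175-27886380: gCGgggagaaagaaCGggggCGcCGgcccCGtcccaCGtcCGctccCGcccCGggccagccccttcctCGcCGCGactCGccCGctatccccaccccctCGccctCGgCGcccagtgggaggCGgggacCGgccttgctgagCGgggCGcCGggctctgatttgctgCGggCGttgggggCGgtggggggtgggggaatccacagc

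The 123 bases shown for Col1a2, which end 126 bases before its start, hold 5 CG. The 250 bases directly before Col3a1 hold 0, and the 206 bases shown for Col5a1, which end 45 bases before its start, hold 25. The whole 250 bases before these starts hold 11, 0 and 28. Of the 44 members, 35 were in the promoter table. Over the 250 bases before the start that the table gives, which for Col18a1 and Col6a2 is another start than the one used for captured DNA, they held a median of 10 CG, beside 6 over all 27025 genes of the table. The GC box GGGCGG, searched on both strands, was found in 60% of the 35 and in 32.9% of all promoters. CCAAT was found in 34.3% and 34.5% and TATAAA in 14.3% and 13%. These are counts of letters in a window.

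In muscle the captured DNA at the 44 start sites had a median of 8.19, 8.5 and 10.8 normalized counts at 2, 20 and 28 months, beside 6.91, 6.74 and 9.05 over 13138 genes. In T cells the medians were 12.7, 18.3 and 21.9, beside 8.37, 10.5 and 11.1. From 2 to 28 months the value was higher at 70.5% of the collagen sites in muscle and at 77.3% in T cells, against 64.4% and 65.4% of all genes. The median log2 change in muscle was 0.23, beside 0.31 over all genes, and in T cells 0.34, beside 0.25. With 21 bins in place of 5 the muscle median was -0.13, beside -0.12 over all genes, and the T-cell median 0.18, beside 0.28.

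Col3a1, without a CG in the window shown, went from 1.82 and 2.53 to 10.6 in muscle and was at 7.51, 4.38 and 5.82 in T cells. Its neighbouring bins are included in these values. Col5a1, rich in CG, went from 0.364 and 0.842 to 4.21 in muscle and from 0.406 and 3.16 to 14.3 in T cells. Its muscle values were near the floor, above those of only 2.4%, 6.8% and 12.6% of genes at 2, 20 and 28 months. Col1a2 was at 5.46, 9.26 and 9.82 in muscle, and Col1a1 at 9.1, 7.91 and 7.39.

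Among the basement membrane collagens, 4 of 8 genes were higher in muscle and 7 of 8 in T cells at 28 than at 2 months. Col4a1 and Col4a2, which share their bins, were at 7.46, 17.5 and 8.41 in muscle and at 17.7, 32.4 and 66.1 in T cells. Col4a3 and Col4a4, which also share bins, were at 25.1, 19.9 and 16.4 in muscle and at 23.3, 34.6 and 51.8 in T cells. As these pairs are counted once for each gene, the 8 genes of the class stand for fewer sites. Of the 44 sites, the largest log2 changes in T cells from 2 to 28 months were those of Col5a1, Col11a1 (1.83, 7.79 and 26.7), Col13a1 (3.45, 4.38 and 38.6) and Col19a1 (7.71, 30.4 and 70.8). In muscle, where their RNA was measured, Col11a1 stayed at 0.637 to 1.09 and Col13a1 at 6.23 to 8.92. Col19a1 went from 7.82 and 7.91 to 13.8 there, a log2 change of 0.74 from 2 to 28 months.

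**Figure D5:**
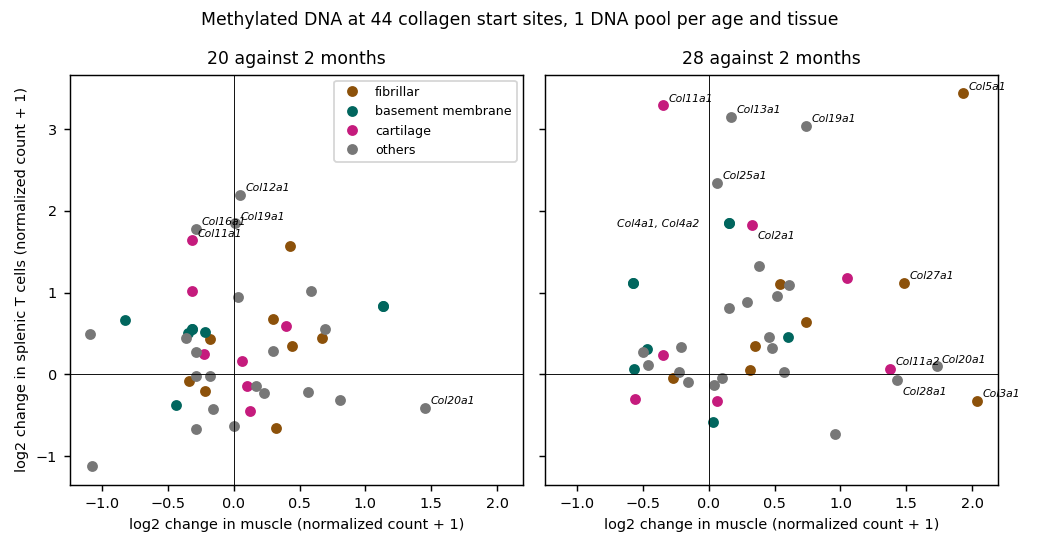
Log2 change of captured methylated DNA at the 44 collagen start sites in muscle (horizontal axis) and splenic T cells (vertical axis), 1 point per gene coloured by class, from 2 to 20 months on the left and from 2 to 28 months on the right. On the right, Col11a1 is at 3.29 in T cells and -0.35 in muscle, and Col5a1 at 3.44 and 1.93.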

How the data were processed

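Members, partner lists and marker lists were chosen with earlier results of these data known. The deposited RNA values are signal made by the authors, who trimmed reads with Trim Galore, aligned them to mm10 (Hisat2 in the methods, TopHat in the submitters' notes), counted them per refSeq gene with htseq-count and divided them by 1 DESeq2 size factor per library. The deposited MBD signal was counted by the authors with Bowtie2 and bedtools in 500-bp bins and scaled alike. All values (100%, within 1e-06 reads) were whole multiples of 1 step per library, so reads were recovered. The 5 rows of reads without a gene, 37.9% to 47.7% of all reads, were left out.

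The 9 libraries were fitted with limma 3.58.1 (R 4.3.3, trend, age alone in the model) after a pseudocount of 1 and log2. The fit covered 13178 genes with a mean of at least 10 normalized counts, and p-values were adjusted by Benjamini-Hochberg over all of them. Samples of an age are separate mice. Intervals are at 95% from this fit. On the recovered reads edgeR 4.0.16 called 2200, 51 and 1775 genes for 20-m against 2-m, 28-m against 20-m and 28-m against 2-m, limma 2181, 50 and 1814, and DESeq2 1.42.0 2560, 228 and 2125. Shares and ratios were compared by two-sided exact permutation tests on log2 values. Folds are ratios of mean normalized counts. Positions and transcript lengths are those of the longest RefSeq transcript of GRCm38. Any collagen, partner or marker gene could be named whatever its values. Alternatives were other pseudocounts, filters, scalings, tests and sets of libraries. Leaving out 2-m replicate 1 with 28-m replicate 2, and for genes those numbered 3, was chosen after seeing the data. Tests were tried on simulated data. The Schwann cell marker list is not reported here.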

Additional observations from a re-analysis of the deposited data

Results flagged for a closer look

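The median change of methylated DNA at the start sites of basement membrane collagens had opposite signs in muscle and T cells, though single genes went both ways and 2 pairs of genes share their bins. The median log2 change over the 8 genes was -0.32 in muscle and 0.55 in T cells from 2 to 20 months, and -0.22 and 0.79 from 2 to 28 months. Over all 13138 genes the medians also had opposite signs from 2 to 20 months, at -0.08 in muscle and 0.24 in T cells, and were 0.31 and 0.25 from 2 to 28 months. For the other collagens the medians from 2 to 20 months were 0.01 and -0.02, both near 0. These differences were not tested, since each value comes from 1 pool of DNA.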

How the results depend on the processing

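Of the 23 collagen genes called at 20 months, 18 kept direction and call under every alternative in which they were tested and that kept the adjusted p as threshold, and none turned. One of the 18, Col26a1, was too low to be tested with a mean of at least 50. Of the 21 called at 28 months, 12 did so and none turned. A fold over 2 with unadjusted p under 0.05 instead picked 21 and 22 genes, with 18 of the 23 and 16 of the 21 among them. Under all scalings the medians over all genes lay between -0.02 and 0.03 (log2). Without single libraries the counts of collagen calls were 18 to 25 at 20 months, 17 to 24 at 28 months and 0 for 28-m against 20-m. For partner genes they were 11 to 21, 7 to 16 and 0. The difference of 28-m from 20-m in the collagen share ranged from -0.04 to 0.41, turning without 28-m replicate 3. The called partner genes, 17 at 20 and 15 at 28 months, became 8 and 8 with rescaling to the same sum, 8 and 8 at a fold over 2 with unadjusted p under 0.05, and 10 and 6 with libraries numbered 1 and 2 only. Without 2-m replicate 1 and 28-m replicate 2 they were 9 at 28 months. For 28-m against 20-m, DESeq2 called 1 collagen gene, and the fold rule picked 2 collagen genes, Col28a1 higher and Col4a3 lower, and 1 partner gene. With 21 bins around the start site, the muscle medians of captured DNA turned to -0.01 at 20 and -0.13 at 28 months. The causes of these shifts were not tested. No pairing by replicate number was assumed: of the same-numbered pairs of libraries, those numbered 1 and 2 had a Pearson r of -0.04 to 0.1 and those numbered 3 of 0.109 to 0.161. With the replicate number as a block, 26 and 24 collagen genes were called at 20 and 28 months and 0 in 28-m against 20-m, and 18 and 18 partner genes. In this pairing the share differences of -1.97 and -1.77 had p = 0.25, the smallest an exact permutation test of 3 pairs allows. Collagens with a mean below 10 normalized counts were not tested.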
